A study of Mus musculus with 4 samples.

Results

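The promoters of the potassium, calcium and sodium channel genes were examined in mouse embryonic stem cells. Members were the protein-coding genes of the GENCODE vM1 annotation whose symbol starts with Kcn, Cacn or Scn followed by a letter or digit, without Scnm1 and the Scnn genes of the epithelial sodium channel. The rule found 137 of 22367 gene records, of which 96 were Kcn (potassium channels), 26 Cacn (voltage-gated calcium channels) and 15 Scn (voltage-gated sodium channels). The 137 records carry 134 symbols, since Kcnb2, Kcnh8 and Scn8a each have 2 records. Each promoter window reached 1 kb to either side of the annotated start of the gene.

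The data were 4 chromatin immunoprecipitation sequencing (ChIP-seq) libraries from E14TG2a.4 cells, a feeder-independent embryonic stem cell line kept in serum with LIF. Jarid1b, the product of Kdm5b, was precipitated in 2 libraries from cells labelled E14 ESCs. Histone H3 trimethylated at lysine 4 (H3K4me3) was precipitated in 1 library from cells labelled LKO Scr ESCs and 1 from cells labelled LKO Jarid1b ESCs, that is, cells transduced with lentivirus for a scrambled short hairpin RNA (shRNA) or for a Jarid1b shRNA and selected with puromycin. The labels name no clone, and each H3K4me3 condition was 1 library, so no difference between them has a replicate check.

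Jarid1b takes methyl groups off H3 lysine 4, and H3K4me3 is the mark of active and poised promoters, which in mammals mostly lie in CpG islands. Voltage-gated channels consist of a pore subunit that opens with the membrane potential and of auxiliary subunits that set its trafficking and gating. Potassium channels repolarize the membrane, sodium channels carry the upstroke of the action potential, and calcium channels couple depolarization to secretion, contraction and gene expression. Most members are known for their roles in neurons and muscle, and many neuronal channel genes are held silent outside the nervous system by the repressor REST.

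A member of each family with a high H3K4me3 ratio, and the member with a single gene record and the fewest H3K4me3 reads, show the contrast in base composition that runs through the results. The 300 bases run 5′ to 3′ from 250 before to 50 after the start on mm9, with CpG dinucleotides in capitals. The marked examples are Kcnd3 (chr3:105254998-105255297, plus strand, 36 CpGs), Cacna1g (chr11:94335365-94335664, minus strand, 31 CpGs) and Scn4b (chr9:44946270-44946569, plus strand, 27 CpGs). Of these, Kcnd3 was marked in the knockdown library alone. The unmarked ones are Kcnj16 (chr11:110829097-110829396, plus strand, 3 CpGs), Cacna1f (chrX:7183959-7184258, plus strand, 4 CpGs) and Scn3a (chr2:65405635-65405934, minus strand, 8 CpGs).
Kcnd3: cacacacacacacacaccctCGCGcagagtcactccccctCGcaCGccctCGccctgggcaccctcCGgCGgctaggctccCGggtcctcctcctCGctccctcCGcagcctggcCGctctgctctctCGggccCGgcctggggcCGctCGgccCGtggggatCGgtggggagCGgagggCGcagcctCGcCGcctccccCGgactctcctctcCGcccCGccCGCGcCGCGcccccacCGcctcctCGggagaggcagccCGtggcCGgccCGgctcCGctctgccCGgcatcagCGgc
Cacna1g: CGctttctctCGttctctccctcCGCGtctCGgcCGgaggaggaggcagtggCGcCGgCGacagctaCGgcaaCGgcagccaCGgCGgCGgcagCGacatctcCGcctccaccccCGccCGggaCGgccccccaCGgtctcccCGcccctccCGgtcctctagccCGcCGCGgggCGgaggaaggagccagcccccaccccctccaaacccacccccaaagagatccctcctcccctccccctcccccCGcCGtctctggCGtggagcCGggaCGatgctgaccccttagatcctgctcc
Scn4b: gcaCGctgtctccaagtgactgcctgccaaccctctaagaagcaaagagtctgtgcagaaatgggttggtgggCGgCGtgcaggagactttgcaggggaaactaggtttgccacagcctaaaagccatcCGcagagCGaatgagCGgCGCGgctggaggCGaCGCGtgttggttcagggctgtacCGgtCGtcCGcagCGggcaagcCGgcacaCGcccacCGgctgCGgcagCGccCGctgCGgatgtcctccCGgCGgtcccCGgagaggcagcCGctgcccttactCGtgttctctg
Kcnj16: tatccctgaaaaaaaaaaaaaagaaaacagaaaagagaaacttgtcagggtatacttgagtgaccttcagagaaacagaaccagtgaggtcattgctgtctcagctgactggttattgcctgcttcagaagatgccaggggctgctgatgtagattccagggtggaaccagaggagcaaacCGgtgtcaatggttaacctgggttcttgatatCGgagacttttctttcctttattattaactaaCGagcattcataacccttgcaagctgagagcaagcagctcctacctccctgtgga
Cacna1f: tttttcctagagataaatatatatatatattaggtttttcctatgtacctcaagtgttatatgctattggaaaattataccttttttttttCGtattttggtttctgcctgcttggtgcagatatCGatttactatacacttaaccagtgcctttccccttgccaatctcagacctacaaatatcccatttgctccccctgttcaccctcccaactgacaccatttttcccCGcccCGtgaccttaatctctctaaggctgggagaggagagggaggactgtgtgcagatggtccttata
Scn3a: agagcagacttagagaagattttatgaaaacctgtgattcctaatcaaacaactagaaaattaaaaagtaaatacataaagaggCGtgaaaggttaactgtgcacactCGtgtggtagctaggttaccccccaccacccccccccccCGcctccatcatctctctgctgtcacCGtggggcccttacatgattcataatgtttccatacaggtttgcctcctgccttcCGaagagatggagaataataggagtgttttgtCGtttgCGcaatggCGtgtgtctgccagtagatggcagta

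Reads kept ranged from 1602370 to 5158330 per library. The 2 H3K4me3 libraries were unlike in depth, with 5158330 scramble and 2635705 knockdown reads kept. Rows repeating a strand and 5′ position, which were dropped, made up 31.5% of the scramble and 7.56% of the knockdown rows. An average window of the genome held 3.39 and 1.25 reads in the Jarid1b libraries, 4.03 in the scramble library and 2.06 in the Jarid1b shRNA library. The Jarid1b libraries differed by no more than the sampling noise (chi-square per degree of freedom 0.996 over 12603 promoters), and 16.8% of the plus-strand read positions of the second were also in the first, against a median of 1.76% at other offsets. They were therefore counted as 1 sample, and a call in both is no check between cultures. Of 8 stem cell markers, 7 carried scramble H3K4me3, and Esrrb held 3 scramble and 0 knockdown reads. The summed level of the 8 was 292 RPM (reads per 1000000 reads kept) in the scramble and 211 RPM in the knockdown library. Of the 7 compared, 4 were at least 2-fold lower in the latter. Neuron markers summed to 35.9 and 51.2 RPM over 6 genes, with Gad1 and Rbfox3 at 0 reads in the knockdown library. Muscle markers summed to 10.1 and 16.7 RPM over 7 genes with Ckm and Myh6 at 0 there, and fibroblast markers to 6.40 and 15.9 RPM over 5 with Col3a1 at 0. These sums rest on few reads, 52 and 44 in muscle markers and 33 and 42 in fibroblast markers. Over all promoters compared, the median log2 ratio of knockdown to scramble was itself 0.41. The part of a change in cell state in the channel results was not tested. The Kdm5b promoter held 153 scramble and 155 knockdown reads, which checks nothing about the knockdown, since an shRNA acts on the transcript.

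Most channel promoters already carried H3K4me3 in the scramble cells, at low levels. A promoter was called enriched when its reads exceeded the larger of the genome and local rates by a Poisson test within its library, with a Benjamini-Hochberg adjusted p below 0.05. In the scramble library 90 of the 137 channel promoters were called, or 65.7%, beside 60.0% of all promoters. In the knockdown library 88 were called, or 64.2%, beside 59.9% of all. Both libraries shared 84 of these promoters, 6 were called in the scramble library alone, 4 in the knockdown library alone and 43 in neither. The share was highest in Cacn (19 of 26), close behind in Kcn (65 of 96) and lowest in Scn (6 of 15). The median scramble level was 3.88 RPM over the channel promoters and 6.01 RPM over all promoters. Over promoters called in both libraries it was 5.91 RPM at the 84 channel promoters and 18.2 RPM at all 12979, so a marked channel promoter typically held less of the mark than a marked promoter in general.

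The unmarked members tended to be poorer in CpG. The 300 bases around the start held a median of 4 CpGs in the 43 unmarked promoters and 18 in the 84 marked in both libraries. The ranges overlapped, from 0 to 22 in the unmarked and from 1 to 53 in the marked. The GC content of the whole window had a median of 48.4% in the unmarked and 57.9% in the marked. Among the families, the median GC content was 55.2% in Kcn, 56.5% in Cacn and 49.5% in Scn, so the family with the fewest marked promoters also had the lowest GC content. The reads of the 87 channel promoters compared peaked 150 bases downstream of the start in both H3K4me3 libraries, where the level was 14.8 times that of the flanks under the scramble and 34.8 times under the Jarid1b shRNA. Over all promoters compared the values were 30.7 and 47.2 times, also higher under the Jarid1b shRNA.

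**Figure D1:**
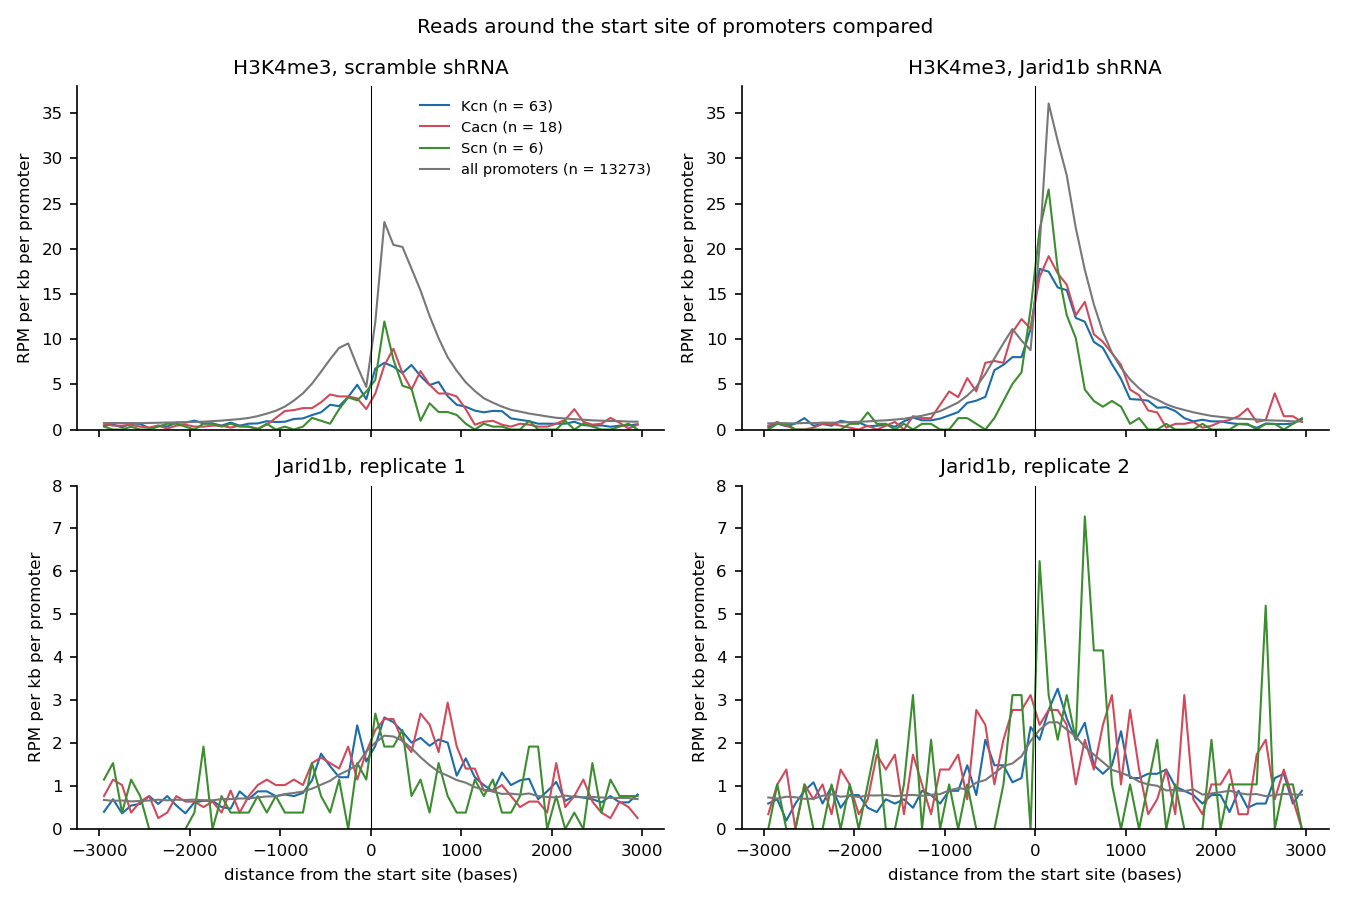
RPM per kb per promoter (vertical axis) against the distance from the start site in bases (horizontal axis), for the Kcn, Cacn and Scn promoters compared and all promoters compared, 1 panel per library. The H3K4me3 peak of each channel family is lower than that of all promoters in both libraries, and it is higher in the knockdown than in the scramble panel. The Scn lines rest on 6 promoters and are jagged in the Jarid1b panels.

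At most marked channel promoters the H3K4me3 level was higher in the Jarid1b shRNA library. The comparison took promoters that were enriched under 1 shRNA or both and summed to 20 reads or more, and the call of higher or lower needed a difference of at least 2-fold in RPM and an exact 95% counting interval of the log2 ratio without 0. Of 87 channel promoters compared, 50 were higher, or 57.5%, beside 24.0% of all 13273 promoters compared. None was lower, beside 2.37% of all promoters. Of the 83 compared that were enriched in both libraries, 48 were higher, or 57.8%, beside 23.5% of all such promoters. Kcnd3 and Kcnn1, the 2 compared that were enriched in the knockdown library alone, were both called higher. The log2 ratio of knockdown to scramble was above 0 at 82 of the 87, with a median of 1.10 (quartiles 0.53 and 1.76) and a range from -0.68 to 3.72. Over all promoters compared the median was 0.41 (quartiles -0.12 and 0.98). Scaled so that this overall median is 0, the channel median was 0.69 and 33 of 87 promoters stayed past the 2-fold limit, beside 12.0% of all. With 1 library a condition, all intervals cover counting error only.

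**Figure D2:**
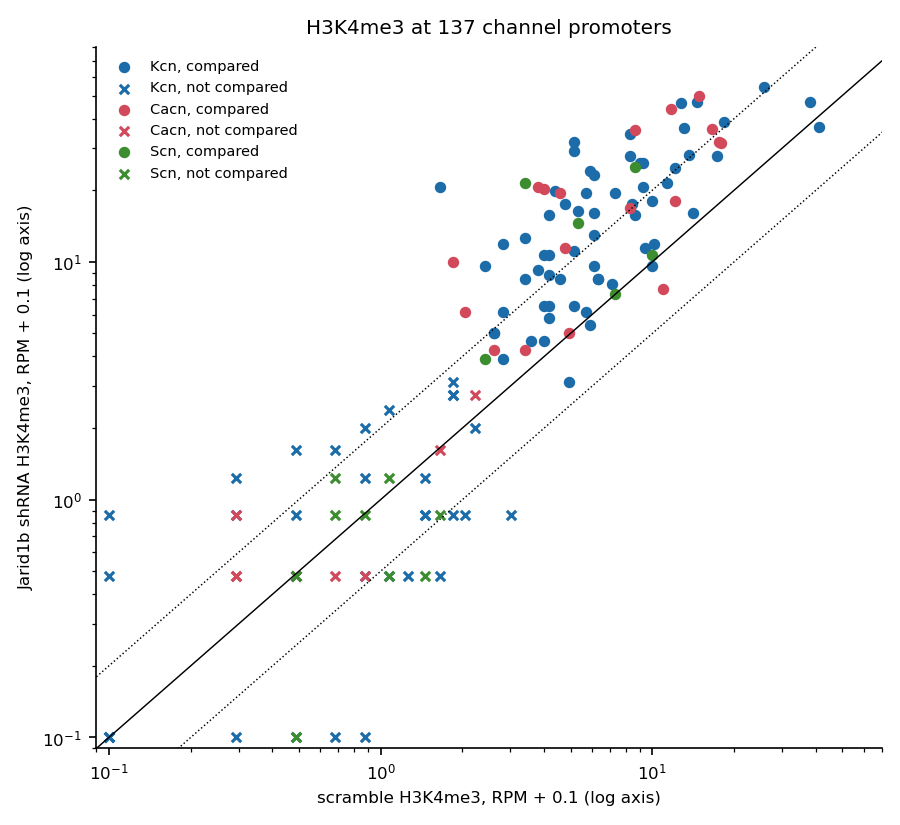
H3K4me3 in the knockdown library against the scramble library at the 137 channel promoters, as RPM + 0.1 on log axes, by family; crosses were not compared. The solid line marks equal levels and the dotted lines a 2-fold difference: 50 of 87 compared promoters were called above the upper dotted line and none below the lower.

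The 3 family medians were close. The median log2 ratio was 1.09 in Kcn, with 36 of 63 promoters higher, 1.21 in Cacn, with 11 of 18, and 1.08 in Scn, with 3 of 6. Differences between families were not tested, since promoters of 1 library are not replicates. The classes within families spread more widely. The median was 2.37 over the 3 low-voltage-activated calcium pore subunits and 1.41 over 33 voltage-gated potassium pore subunits.

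**Figure D3:**
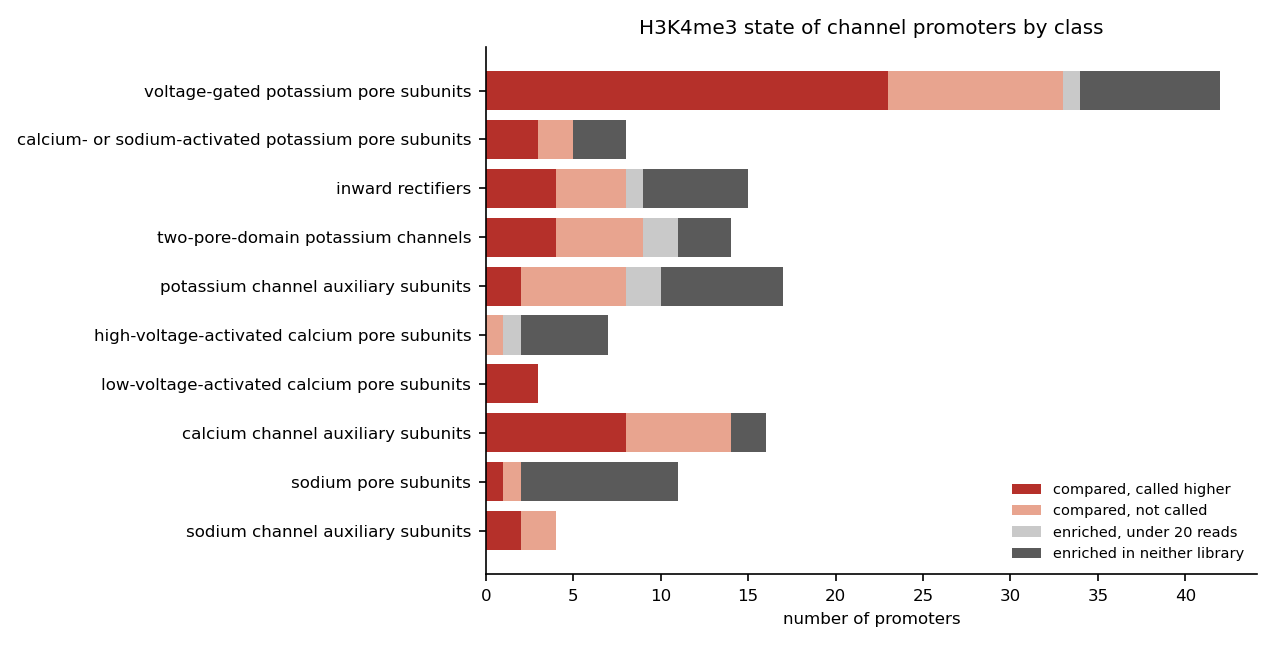
Number of promoters (horizontal axis) in each class of channel gene, split by H3K4me3 state. Red bars are promoters called higher in the knockdown library, 23 of 42 voltage-gated potassium pore subunits and 3 of 3 low-voltage-activated calcium pore subunits; dark bars were enriched in neither library, 9 of 11 sodium pore subunits.

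Voltage-gated potassium pore subunits held the most calls, 23 higher of 33 compared and of 42 records. Kcnd3, which encodes a pore subunit of the fast transient outward current of heart and brain (chr3:105255248-105476920, plus strand), had the highest ratio of all members. It held 8 scramble reads (1.55 RPM) and 54 knockdown reads (20.5 RPM), a log2 ratio of 3.72 (95% interval 2.64 to 5.01), and was not enriched in the scramble library. Its window also holds the start of the noncoding gene 1700095B22Rik, and reads without strand information cannot be assigned to either. Its relative Kcnd2 went from 37 to 51 reads (log2 ratio 1.43, 0.79 to 2.08), whereas Kcnd1 held 51 and 25 reads (-0.06, -0.81 to 0.66). The Kcnd promoters thus ran from no detectable difference to the highest ratio of the set.

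The Kcnc genes encode the rapidly closing channels that let fast-spiking neurons fire at high rates. Kcnc4 went from 26 to 77 reads (5.04 and 29.2 RPM, log2 ratio 2.54, 1.88 to 3.24) and Kcnc1 from 31 to 61 (6.01 and 23.1 RPM, 1.95, 1.30 to 2.62). Kcnc2 held 20 and 28 reads (1.45, 0.57 to 2.36). All 3 of these were called higher.

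Kcnq promoters were called higher too. Kcnq3 and Kcnq5 encode subunits of the M current, a brake on repeated firing, while Kcnq1 serves heart and ear. Kcnq5 went from 30 to 63 reads (5.82 and 23.9 RPM, log2 ratio 2.04, 1.39 to 2.72), Kcnq1 from 27 to 43 (5.23 and 16.3 RPM, 1.64, 0.91 to 2.39) and Kcnq3 from 62 to 65 (12.0 and 24.7 RPM, 1.04, 0.51 to 1.56). The 3 intervals lay above 0.

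Of the Kcna genes, most of which encode delayed rectifiers of axons and other cells, 7 of 8 carried the mark and 4 were higher. Kcna2 went from 24 to 46 reads (log2 ratio 1.91, 1.17 to 2.68) and Kcna3 from 46 to 68 (1.53, 0.97 to 2.11). Kcna1 and Kcna6 were called at 1.16 and 1.10 with wide intervals (0.03 to 2.31 and 0.18 to 2.03). Kcna4 and Kcna5 each held 13 and 13 reads (0.97) with intervals that reach below 0. Kcna10 held 2 and 4 reads and was unmarked. The 3 neighbours on chromosome 3, Kcna3, Kcna2 and Kcna10, thus held 2 marked promoters and 1 unmarked.

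Neither record of Kcnb2, a delayed rectifier gene, had more than 2 H3K4me3 reads in a library. The silent subunits, which modify delayed rectifiers and do not conduct alone, were mixed. Kcng1 (47 and 68 reads, 1.5), Kcng3 (67 and 96, 1.49), Kcns3 (47 and 54, 1.17) and Kcns2 (70 and 74, 1.05) were called higher. Kcng2 (89 and 73, 0.68), Kcnv1 (20 and 17, 0.73) and Kcnf1 (31 and 25, 0.66) stayed under 2-fold. Kcng4, Kcns1 and Kcnv2 were unmarked.

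The Kcnh genes, relatives of the ether-a-go-go channel of the fly, ranged widely. Kcnh3 went from 22 to 52 reads (4.26 and 19.7 RPM, log2 ratio 2.21, 1.47 to 3.0), and Kcnh2, which carries the rapid delayed rectifier of the heart, from 42 to 73 (1.77, 1.20 to 2.35). Kcnh1 was higher as well, at 31 and 42 reads (1.41). Kcnh7 held 25 scramble and 8 knockdown reads, the lowest ratio of any member compared (-0.68), but its interval of -2.03 to 0.52 includes 0.

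Among the potassium channels that are not voltage-gated, fewer promoters were called on ratios taken without regard to GC content. The voltage-gated pore subunits compared had a median GC content of 59.7%, and the Kcnj genes compared 53.8%. Once the GC trend described below was removed, 7 of 33 and 3 of 8 of these stayed higher. The inward rectifiers (Kcnj), which hold the resting potential, had 4 higher of 8 compared and of 15 records. Kcnj4 went from 26 to 84 reads (5.04 and 31.9 RPM, log2 ratio 2.66, 2.01 to 3.35), the second highest ratio in Kcn. Kcnj12 held 75 and 124 reads (1.69, 1.27 to 2.13). The pore subunits of the ATP-sensitive channels, Kcnj11 and Kcnj8, held 14 and 31 reads (2.12) and 21 and 28 (1.38). Kcnj2, a main carrier of the cardiac inward rectifier current, held 52 and 31 reads (0.22, -0.47 to 0.89), and Kcnj10, the glial potassium channel, 30 and 14 (-0.13, -1.16 to 0.83). Of the channel genes gated by G proteins, Kcnj3 (29 and 16 reads, 0.11) and Kcnj6 (14 and 10, 0.48) were not called and Kcnj9 was unmarked. Kcnj5 held 15 and 2 reads, under the read minimum, and with a window of 2 kb on each side it held 18 and 2 and was the only member called lower (log2 ratio -2.20, -5.35 to -0.14).

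The K2P channels (Kcnk), which carry background potassium current, had 4 higher of 9 compared and of 14 records. Kcnk12 went from 42 to 91 reads (8.14 and 34.5 RPM, log2 ratio 2.08, 1.54 to 2.65). Kcnk2, a channel opened by membrane stretch, held 21 and 41 reads (1.93, 1.14 to 2.77). Kcnk5, an alkaline-activated channel known from kidney, had the most scramble H3K4me3 of all members, 212 reads or 41.1 RPM, and 97 knockdown reads or 36.8 RPM (-0.16, -0.52 to 0.19). The most strongly marked member was therefore not higher.

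The Kcnma, Kcnn, Kcnt and Kcnu genes, most of which encode channels opened by intracellular calcium or sodium, had 3 higher of 5 compared and of 8 records. They were Kcnn2 (12 and 25 reads, log2 ratio 2.03), Kcnn1 (17 and 22, 1.34) and Kcnt1 (26 and 29, 1.13). Kcnn1 was enriched in the knockdown library alone, so it entered the comparison through the library in which it was higher. Kcnt2 held 72 and 42 reads (0.19, -0.39 to 0.76). Kcnma1, the pore gene of the large-conductance calcium-activated channel, was unmarked at 7 and 2 reads.

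Auxiliary subunits of potassium channels had the lowest median of any class, 0.37. Of 17 records, 8 were compared and 2 were higher, Kcnip4 (19 and 24 reads, log2 ratio 1.31) and Kcnmb4 (94 and 102, 1.09). Kcnmb4, a brain subunit of the large-conductance channel, shares its window with another gene's start. Kcnab2, a cytoplasmic beta subunit of Kcna channels, had the second highest scramble level, 195 reads or 37.8 RPM, against 124 reads or 47.0 RPM (0.32, -0.02 to 0.65). Kcnab1 (0.48) and Kcnab3 (0.29) were not called, nor were Kcnip2 (0.43) and Kcnip3 (0.19). Of the Kcne genes, single-span partners of Kcnq and Kcnh pores, only Kcne3 was compared (20 and 12 reads, 0.23).

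**Figure D4:**
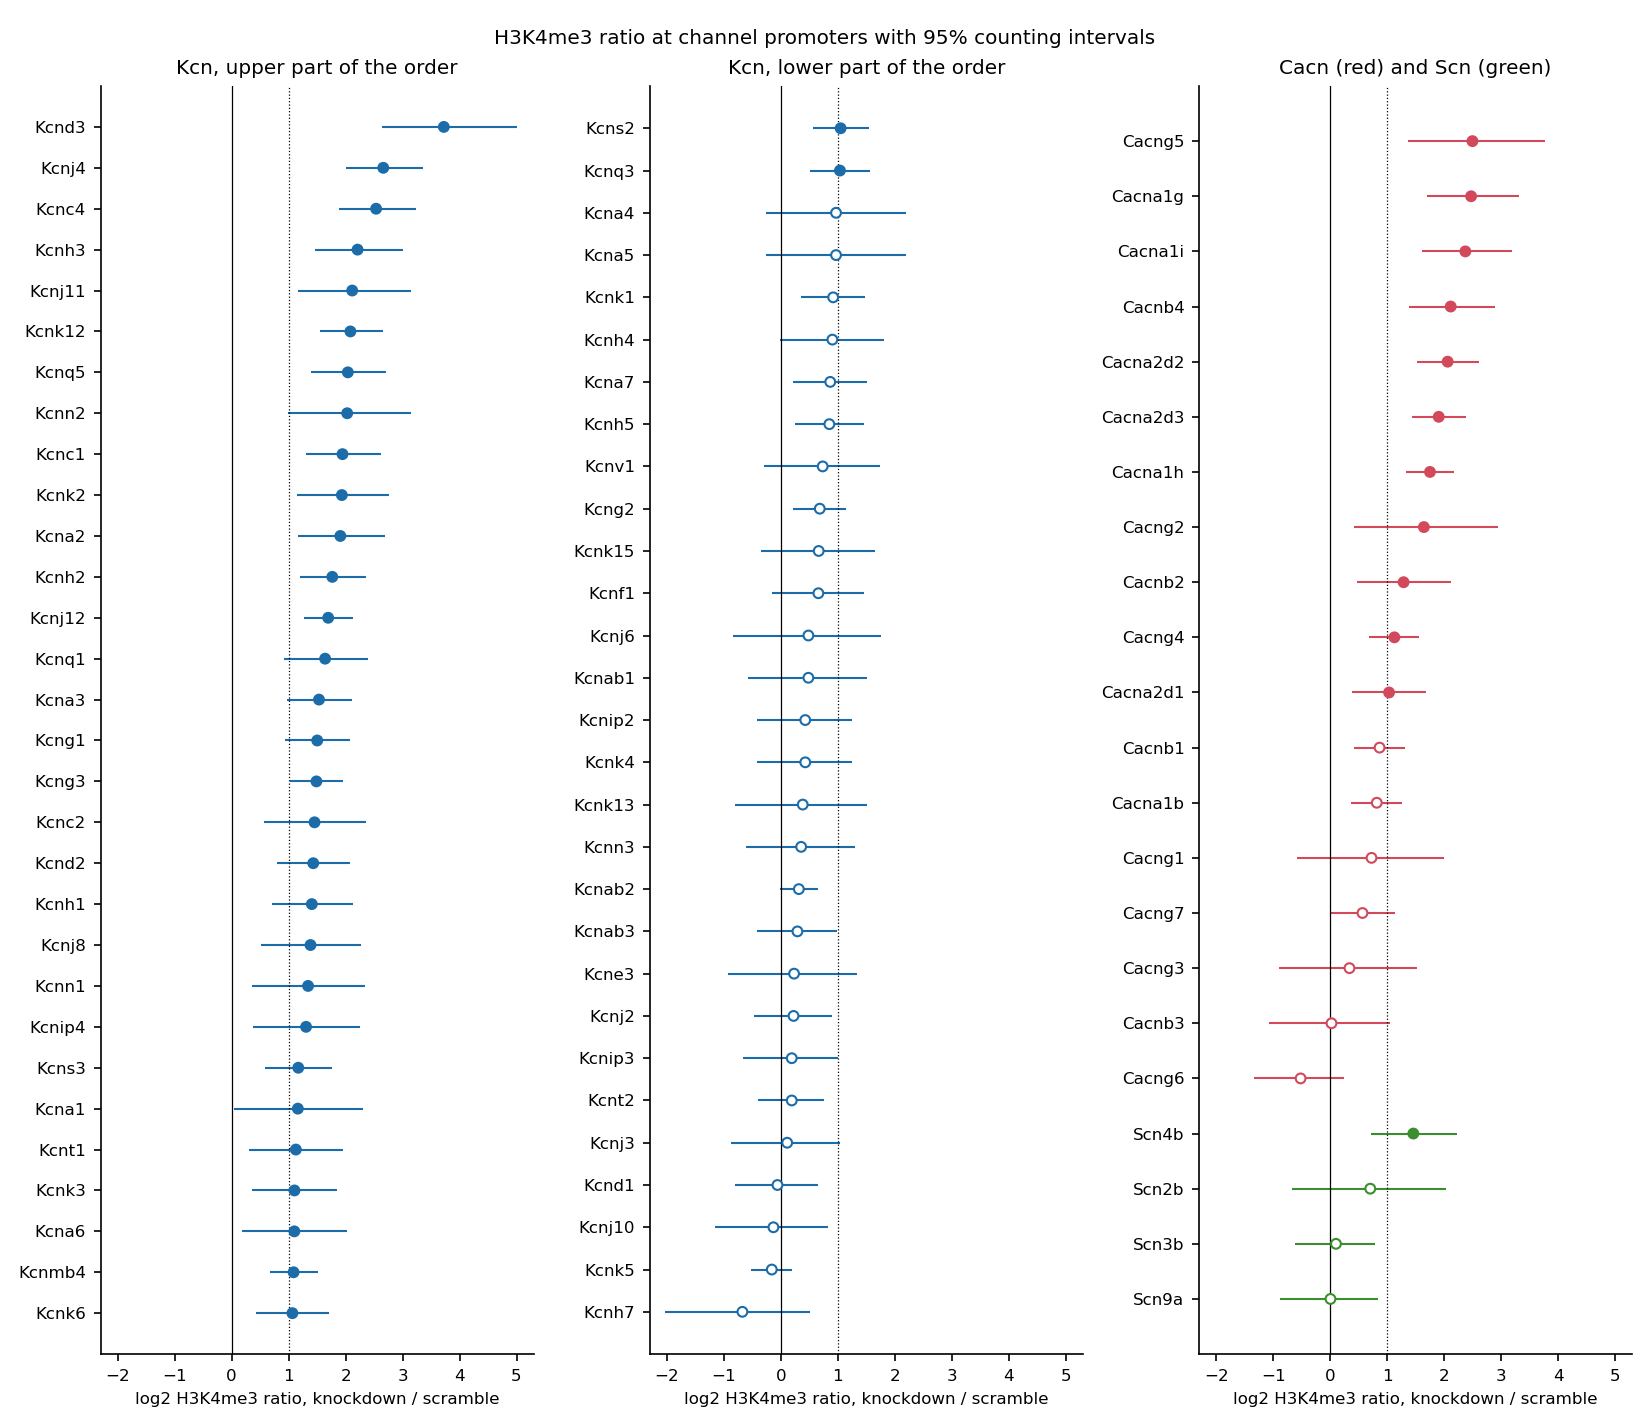
Log2 ratio of H3K4me3 in the knockdown over the scramble library (horizontal axis) for the channel promoters compared whose genes are reported here, with exact 95% counting intervals; filled points were called higher, and the dotted line marks 2-fold. Kcnd3 is at 3.72 and Kcnj4 at 2.66, and the interval of each of the 5 members below 0 includes 0.

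In the Cacn family all 3 low-voltage-activated pore genes were called higher. These T-type channels open near the resting potential and support pacemaking and burst firing. Cacna1g went from 19 to 54 reads (3.68 and 20.5 RPM, log2 ratio 2.48, 1.70 to 3.31), Cacna1i from 20 to 53 (3.88 and 20.1 RPM, 2.37, 1.61 to 3.20) and Cacna1h from 76 to 131 (14.7 and 49.7 RPM, 1.75, 1.34 to 2.18). All 3 were marked in both libraries. Of the 7 high-voltage-activated pore genes, which trigger transmitter release and contraction, 5 were unmarked at the gene-level start. Cacna1b, the N-type pore gene of nerve terminals, held 92 and 83 reads (17.8 and 31.5 RPM, 0.82, 0.37 to 1.26), under 2-fold. Cacna1e held 11 and 7.

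Calcium channel auxiliary subunits were marked more often, 14 of 16 in the scramble library, and 8 of the 14 compared were higher. The Cacna2d genes encode extracellular subunits that bring the pore to the surface. Cacna2d2 went from 44 to 94 reads (8.53 and 35.7 RPM, log2 ratio 2.06, 1.53 to 2.61), Cacna2d3 from 60 to 115 (11.6 and 43.6 RPM, 1.91, 1.44 to 2.38) and Cacna2d1 from 42 to 44 (1.04, 0.39 to 1.68). Cacna2d4, known from the retina, held 1 read in each library. Of the cytoplasmic beta subunits, Cacnb4 went from 23 to 51 reads (2.12, 1.38 to 2.90) and Cacnb2 from 24 to 30 (1.29, 0.47 to 2.13). Cacnb1 held 90 and 84 (0.87, 0.42 to 1.31) and Cacnb3 25 and 13 (0.03, -1.06 to 1.05). The windows of Cacnb1 and Cacnb2 also hold the start of another gene, and their reads cannot be assigned to either.

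The Cacng genes, most of which encode partners of AMPA-type glutamate receptors, lie in part in 2 runs of neighbours. On chromosome 11, Cacng5 went from 9 to 26 reads (log2 ratio 2.5, 1.36 to 3.78), Cacng4 from 85 to 95 (1.13, 0.69 to 1.57) and Cacng1, a skeletal muscle subunit, from 13 to 11 (0.73, -0.57 to 2.00). The Cacng4 window also holds the start of another gene. On chromosome 7, Cacng6 held 56 and 20 reads (-0.52, -1.33 to 0.24), Cacng7 62 and 47 (0.57, -0.01 to 1.14) and Cacng8 8 and 4. Higher calls and uncalled promoters thus lay side by side in the first run, and no promoter of the second was called.

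In the Scn family the auxiliary subunits carried the mark and most pore subunits did not. Of 11 pore records 9 were unmarked, among them the brain genes Scn1a, Scn2a1, Scn3a and both records of Scn8a, and the muscle gene Scn4a. Their scramble reads ran from 2 to 8. Scn10a (5 and 1 reads) and Scn11a (4 and 2), channels of sensory neurons, were unmarked. Scn9a, also of sensory neurons, was marked in both libraries, with 37 and 19 reads (log2 ratio 0.01, -0.87 to 0.84). All 4 beta subunit genes were marked in both libraries. Scn4b went from 27 to 38 reads (5.23 and 14.4 RPM, 1.46, 0.71 to 2.23), while Scn2b held 12 and 10 (0.71) and Scn3b 51 and 28 (0.10, -0.62 to 0.80).

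The ratio rose with GC content, at channel promoters and at all others. Spearman's correlation between the log2 ratio and the GC content of the window was 0.66 over 87 channel promoters and 0.63 over 13272 promoters with a finite ratio, as a description over promoters that share 2 libraries. In promoters of 50 to 55% GC the channel median was 0.57 (n = 22) beside 0.17 for all promoters, and in those of 55 to 60% it was 1.05 (n = 27) beside 0.65. In those of 60 to 65% it was 1.64 (n = 25) beside 1.10, and above 65% it was 2.00 (n = 10) beside 1.49. Up to 50% only 3 channel promoters were compared, with a median of 0.23 beside -0.29. The channel median was the higher of the pair in each class.

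A GC trend was also present in bins far from promoters. When each ratio was taken relative to background bins of the same GC content, the channel median fell from 1.10 to 0.44, beside -0.04 for all promoters. The number of higher channel promoters fell from 50 to 18 of 87, beside 7.04% of all promoters, and none was lower, beside 3.95%. The 18 included Kcnd3 at 2.43, Cacng5 at 2.12, Kcnn2 at 1.65, Cacnb4 at 1.53, Kcnj4 at 1.37, Cacna1i at 1.34 and Cacna1g at 1.18. Cacna1h (0.46), Kcnc1 (0.91), Kcnk12 (0.79) and Cacna2d3 (0.62) were no longer called. Above 65% GC the background rested on only 108 bins, so the values of the 10 channel promoters there are uncertain. Among these were Kcnd3, Kcnj4, Cacna1g, Cacna1h, Kcnk12 and Cacna2d3. By family, 12 Kcn, 5 Cacn and 1 Scn promoters remained. By class, 7 of 33 voltage-gated potassium pore subunits and 3 of 8 inward rectifiers stayed higher. The counts were 1 of 9 K2P channels, 1 of 5 Kcnma, Kcnn, Kcnt and Kcnu genes and 0 of 8 potassium channel auxiliary subunits. The correlation with GC content was still 0.29 over the channel promoters after this step.

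**Figure D5:**
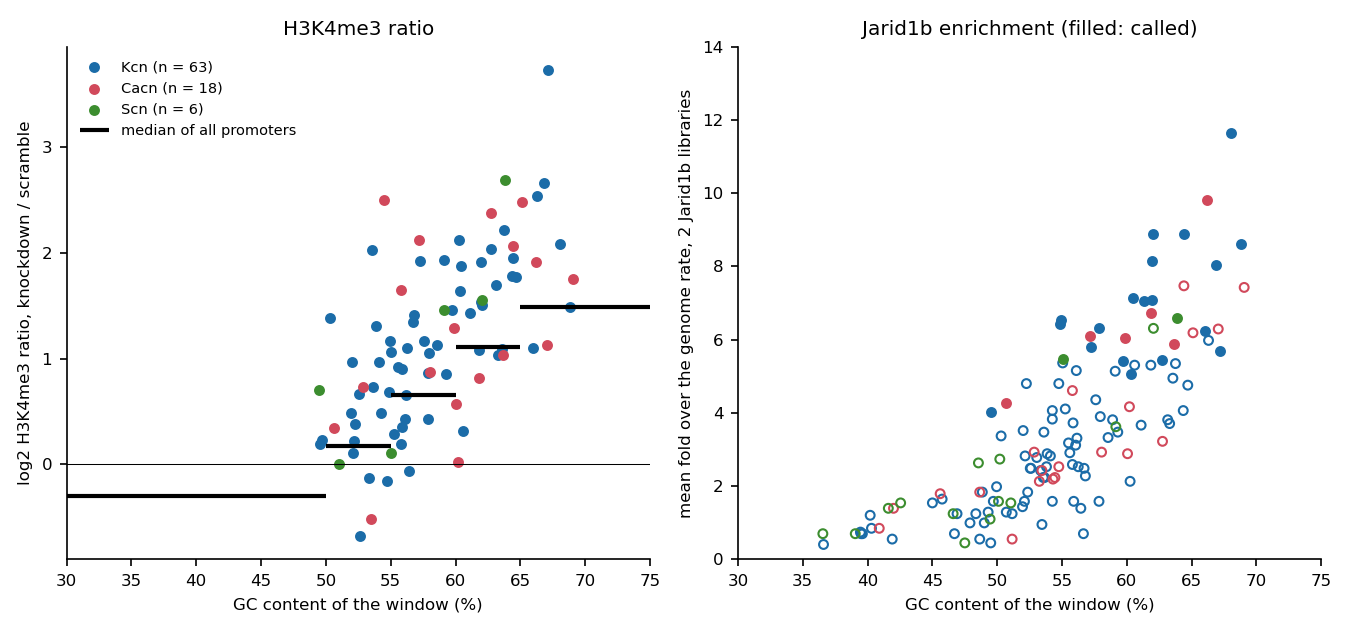
Left, log2 H3K4me3 ratio against the GC content of the window (%) for the 87 channel promoters compared, with black lines at the median of all promoters in 5 GC classes. Right, mean fold over the genome rate in the 2 Jarid1b libraries against GC content for all 137, filled where called; both values are higher at GC-rich promoters.

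Members with more scramble signal tended to have lower ratios, with a Spearman correlation of -0.256 over the 87 channel promoters compared, where the scramble RPM is also the denominator of the ratio. The comparison was repeated within bands of the mean RPM of both H3K4me3 libraries, a mean that holds the knockdown library, so that the ratio itself has a part in which band a promoter falls in. Up to 10 RPM, 16 of 40 channel promoters (40%) were higher beside 28.8% of all promoters, with a median log2 ratio of 0.73 beside 0.57. From 10 to 20 RPM 23 of 31 (74.2%) were higher beside 29.6%, with 1.53 beside 0.51. From 20 to 40 RPM the count was 11 of 15 (73.3%) beside 21.4%, with 1.13 beside 0.34. Channel promoters of the upper bands were also richer in GC, with a median of 62.0% and 63.2% beside 53.7% and 54.9%.

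Jarid1b reads were few at channel promoters, and calls followed GC content. Both Jarid1b libraries called 27 of 137, or 19.7%, beside 7.97% of all promoters. They were 19 of 96 Kcn, 6 of 26 Cacn and 2 of 15 Scn promoters, and 13 of the 27 were voltage-gated potassium pore subunits. Spearman's correlation between mean Jarid1b enrichment and GC content was 0.82 over the 137 promoters. Against background bins of the same GC content 2 members stayed called, beside 0.528% of all promoters: Kcnk12 and Cacna2d3. Both were among the 10 channel promoters above 65% GC, where 28 of 506 promoters in all stayed called. The background of that open-ended class rested on only 108 bins. The second library alone called 29 and the first alone 56, the deeper library calling more.

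The highest Jarid1b values stood at Kcnk12, with 33 and 17 reads in the 2 libraries, 9.73 and 13.6 times the genome rate. Cacna2d3 followed with 26 and 15 reads (7.67 and 12.0 times). Kcng1 and Kcnc1 each held 25 and 13 reads (7.37 and 10.4 times), Kcng3 26 and 12, Kcna2 20 and 13 and Kcnj4 22 and 12. In Cacn, Cacna1b (24 and 8), Cacnb4 (17 and 9), Cacnb2 (14 and 10), Cacna2d1 (21 and 7) and Cacng3 (10 and 7) were also called. In Scn, Scn3b was called with 10 and 10 reads (2.95 and 7.98 times). Kcnq1 (10 and 9) and Kcnq5 (18 and 7) were called, and of the 3 T-type genes none, although Cacna1h held 26 and 9 reads. Kcnk9, an acid-sensitive background channel, was called with 18 and 11 Jarid1b reads while it held only 9 and 7 H3K4me3 reads.

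Jarid1b calls and H3K4me3 ratios met at many members without matching. Of 26 channel promoters compared that were called for Jarid1b, 20 were higher, with a median log2 ratio of 1.52, and of 61 not called, 30 were higher, with 0.97. Their median GC contents were 61.9% and 56.3%. Scn3b and Cacng3 were called for Jarid1b with ratios of 0.10 and 0.34, while Kcnc4, Kcnh3 and Cacna1g had ratios above 2 on the log2 scale and no Jarid1b call. The part of GC content in this difference was not tested.

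The gene-level start missed the marked promoter of some members. With the annotated transcript start that held the most H3K4me3 reads, 99 members were marked in the scramble library instead of 90, and 54 were higher instead of 50. Over all 22367 promoters the same choice raised the marked ones from 13429 to 14222 and the higher ones from 3184 to 3378. Cacna1a, the P/Q-type pore gene of nerve terminals, held 2 and 1 reads at the gene-level start and 78 and 113 at a start 26924 bases downstream (log2 ratio 1.5). Cacna1d, an L-type pore gene, held 4 and 1 against 14 and 40 at 137670 bases downstream (2.48). Kcnk10 held 8 and 1 against 40 and 58 at 3228 bases downstream (1.5), and Kcnn2 12 and 25 against 165 and 170 at 291149 bases downstream (1.01). Cacna1a and Cacna1d, unmarked at the gene-level start, were thus marked at another.

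The binding site of REST, called RE1, holds the letter runs TTCAGCACC and GGACAGC, and both were searched on both strands. The first was found in 13 of 137 channel windows, or 9.49%, beside 3.03% of all promoter windows. The second was found in 71, or 51.8%, beside 41.1%. In the 300 bases around the start the shares were 2.19% beside 0.38% and 10.2% beside 7.07%. A match is a description of the sequence and not a site of binding.

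Other gene lists were set beside the channel families. Of all promoters compared, 24.0% were higher and 2.37% lower, with a median log2 ratio of 0.41. The pacemaker channels (Hcn) and the sodium leak channel Nalcn are relatives of the voltage-gated families, and 4 of these 5 were higher, with a median log2 ratio of 1.42; Hcn2 went from 33 to 70 reads (2.05). Of 6 Clcn chloride channel genes compared none was higher or lower, with a median of 0.39. Of 14 genes of TRP and related channels compared, 4 were higher and 1 lower, with a median of 0.30. Glutamate and GABA receptor genes had 18 of 34 higher, a median of 1.01 and no lower call. Channel partner genes had 4 of 14 higher (0.80) and intracellular calcium release channels 3 of 6 (0.60). The share of 28.6% in the TRP and the partner genes was near that of all promoters. Genes of the REST repressor complex had 3 of 8 higher (0.96), and Rest itself held 93 and 136 reads (1.52, 1.13 to 1.91). With the GC trend removed, 7 of 34 receptor genes, 2 of 14 TRP genes and 1 of 14 partner genes stayed higher. None of the Hcn and Nalcn, Clcn, calcium release or REST complex genes did. Hcn2 was then at 0.76 and Rest at 0.23. The receptor median was 0.49 and that of the Hcn and Nalcn genes 0.68, beside -0.04 for all promoters.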

How the data were processed

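ChIP-seq reads of 4 libraries were analysed. Each row of the deposited files is a mapped read with a score of 0. The authors mapped tags to mm9 with Bowtie, per the submitters' processing notes; the version used is not stated there. The labels' protocols also describe MACS peaks and IgG normalization, not analysed here. Autosomal, X and Y reads were thinned to 1 per strand and 5′ position and shifted 75 bases. Windows were tested against the genome rate or the rate in 10 kb on each side. Ratios used reads scaled to reads kept, with exact Clopper-Pearson intervals conditional on the summed reads. Reads carry no molecular identifiers, so intervals cover counting error only. GC background came from 1 kb bins over 5 kb from any start, in 14 classes. Python 3.11.15, numpy 2.4.6, scipy 1.17.1 and pandas 2.3.3 were used, and the procedures were tested on simulated data. Sequences are from the NCBIM37 assembly (mm9). Every member could be named, and full statistics went to the highest and lowest ratios, the highest scramble levels and the Jarid1b calls of each family. From another list at most 3 genes were named, by the size of the ratio. A few members are counted in the totals but not named here. The members and lists were chosen with earlier results of these data known.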

Additional observations from a re-analysis of the deposited data

How the results depend on the processing

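Of 215 values recomputed under alternatives, 163 were counts and 52 were medians. Of the counts, 139 stayed within 1.5 times the main count and 24 moved. Of the medians, 47 stayed within the order-statistic interval of the main median and 5 moved, none with a change of sign. A change of sign is possible for medians only. The Jarid1b count of 27 channel promoters (19 Kcn, 6 Cacn, 2 Scn) became 16 (11 Kcn, 0 Scn) at an adjusted p of 0.01, 53 (37, 12 and 4) against the genome rate alone, and 2 (1, 1 and 0) against background of the same GC content. Leaving out either Jarid1b library gave 29 to 56, with ranges of 20 to 41 in Kcn, 6 to 13 in Cacn and 2 to 3 in Scn. A window of 500 bases gave 12 Kcn and 1 Scn promoters, and the best-marked transcript start gave 11 Cacn promoters. Scaling to the median ratio left 33 higher promoters (22 Kcn) with medians of 0.69 and 0.68 in Kcn. Removing the GC trend left 18 (12, 5 and 1), with medians of 0.44, 0.40 in Kcn and 0.41 in Cacn. A window of 2 kb gave 1 lower promoter, Kcnj5. Counting all rows, repeats included, gave 57 higher promoters instead of 50, with a median of 1.31 instead of 1.10. The matching share of all promoters was not taken. Leaving out windows with another start, or symbols with 2 records, both chosen after seeing the data, moved no count by over 1.5 times. All records of the symbols with 2 records were unmarked, without a Jarid1b call and not compared, so leaving them out could change no count. Only 8 windows hold another start, too few to move a total over all channel promoters by 1.5 times. Both settings are among the 215 values, and where no move was possible they say nothing about stability. Without windows that hold another start, 44 of 80 channel promoters compared were higher, or 55%. In Cacn the higher promoters then fell from 11 to 8. No paired analysis was possible because the H3K4me3 conditions have 1 library each. Few reads limit the low members: 3 reads, the most that a count of 0 allows, equal 0.58 RPM in the scramble and 1.14 RPM in the knockdown library.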
